A study of Mus musculus with 14 samples.

Results

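Leukemic progenitors from mice that had taken the IDH1 inhibitor AG120 for 14 days were compared with those from mice that had taken it for 5 days. The comparison is a direct one between treated cells and uses 5 of the 14 libraries of the study, chosen by the treatment and day in their labels. All genes were considered. All mice carried transplanted I1DN leukemia, a name that the labels do not spell out, and cKit+ CD11b- progenitor cells were sorted per mouse, so each library was taken as 1 mouse. The groups compared were AG120 day 14 (n = 2), AG120 day 5 (n = 3), vehicle day 14 (n = 2) and vehicle day 5 (n = 3). The other 4 libraries are labelled as 28 days of AG120 and relapsed. They were not compared but entered the main fit, which estimates the spread of each gene. The 2 vehicle groups served as the background for the same span of time without drug. The labels give neither the age of the mice nor, for any sort, a marker that separates leukemic from host cells. The QuantSeq kit counts transcripts near their poly(A) tail.

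Mutant forms of IDH1 make 2-hydroxyglutarate, a metabolite that inhibits enzymes dependent on 2-oxoglutarate, among them histone and DNA demethylases, and AG120 (ivosidenib) blocks its production. In acute myeloid leukemia with mutant IDH1, such inhibitors are known for release of a block in differentiation, after which the leukemic cells can acquire features of mature blood cells. Red cell maturation runs through heme synthesis, iron uptake, assembly of a spectrin skeleton under the membrane and globin synthesis, whereas neutrophil maturation runs through primary and then secondary granules.

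Ribosomal RNA gene models held 74.8% and 63.1% of the counts in AG120 day 14, against 62.5% to 65.3% in AG120 day 5, and other genes had 1259982 and 1978091 counts, against 2275579 to 2578051. Genes detected numbered 15336 and 17243, against 17151 to 18095. Levels are given as CPM, the count of a gene relative to the whole library's count scaled by TMM, so that 1 count was worth 0.298 and 0.200 CPM in AG120 day 14 replicates 1 and 2 and 0.152 to 0.168 CPM in AG120 day 5. Principal components of the 5 libraries were taken over the 2000 genes that varied most among them, and shares of variance are of those genes. The first component (63.4%) placed AG120 day 14 at −41.4 and −27.8, apart from AG120 day 5 at 21.5 to 24.2. The second (17.7%) separated the AG120 day 14 libraries from each other, at 20.6 and −26.3, so that replicate 1 was both the shallower library and the one farther from day 5.

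Between the days of AG120, 492 of the 11994 genes tested differed (4.1%), by the quasi-likelihood test of edgeR at an adjusted p under 0.05 after Benjamini and Hochberg. Of these, 210 were higher at day 14 (1.75% of the genes tested) and 282 were lower (2.35%), and 136 and 191 of them changed more than 2-fold. The AG120 libraries of the 2 days did not overlap in CPM for any of the 492 genes, as was so for 41.4% of all genes tested, and for 31.3% between the days of vehicle. Without AG120 day 14 replicate 1 the count was 137, without replicate 2 it was 187, and without AG120 day 5 replicates 1, 2 or 3 it was 277, 317 or 252. The count also depended on the libraries that set the spread. With the 4 relapse libraries left out of the fit it was 1685, of which 885 were higher and 800 lower, and with only the 5 AG120 libraries it was 1448, of which 742 were higher and 706 lower. Limma-voom called 234 higher and 133 lower, so the balance of directions differed between fits. Of the 210 higher genes 24 reached the filter on low counts only through AG120 day 14, the group where they were high. Calls of those 24 are therefore no support. In all, 124 genes were tested only through AG120 day 14. Another 128 were tested only through AG120 day 5, and 0 of them passed as lower.

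In vehicle no gene passed in the same fit, in which 574 genes had an unadjusted p under 0.05, against 2174 under AG120. DESeq2 and limma-voom also called 0 genes in vehicle, with 434 and 640 at an unadjusted p under 0.05. Vehicle libraries fitted alone gave 236 calls, and with relapse left out 117 were called. Across the genes tested, the SD of the log2 change was 0.819 under AG120 and 0.427 under vehicle. Of all genes tested, 7780 (64.9%) had a larger absolute log2 change under AG120 than under vehicle. The AG120 day 14 libraries had 1259982 and 1978091 counts outside ribosomal RNA, against 2436871 and 2627684 in vehicle day 14. The part of counting noise in the SDs and in this share was not tested. The change under AG120 differed from that under vehicle by the test of the difference itself for 112 genes (0.934% of the genes tested), of which 105 were among the 492. The difference was positive for 25 (0.208%) and negative for 87 (0.725%). Across genes, the changes in AG120 and in vehicle, which share no library, had a Pearson r of 0.0589 and a Spearman rho of 0.0684. Genes are not independent replicates, so this is a description.

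**Figure D1:**
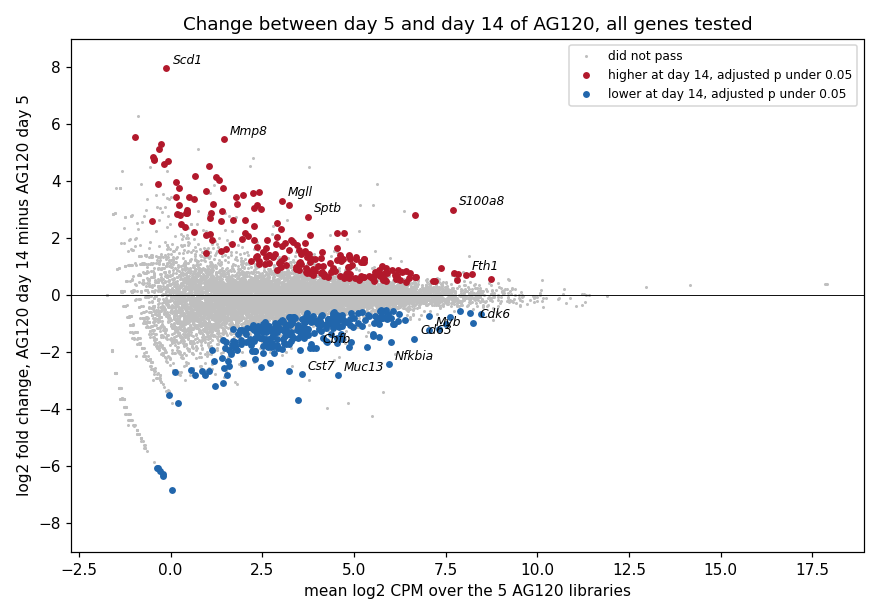
Each point is 1 of the 11994 genes tested. The x axis is the mean log2 CPM over the 5 AG120 libraries and the y axis is the log2 fold change of AG120 day 14 minus AG120 day 5. The 210 genes that were higher at day 14 and the 282 that were lower are drawn in colour.

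**Figure D2:**
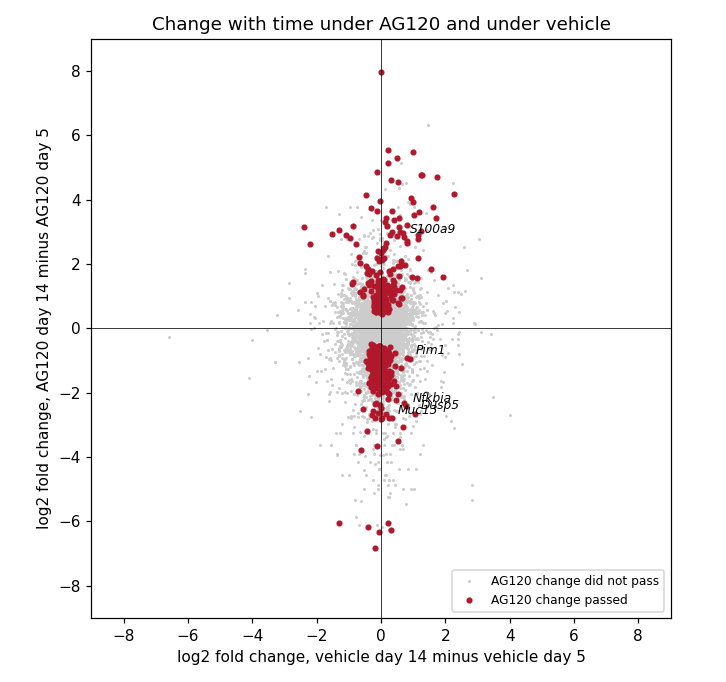
Each point is 1 gene tested, with its log2 change between the days under vehicle on the x axis and under AG120 on the y axis, on the same scale. The cloud is taller than wide (SD 0.819 under AG120 and 0.427 under vehicle), and the 492 genes that passed under AG120, drawn in red, lie mostly near 0 under vehicle. The AG120 day 14 libraries were shallower than those of vehicle day 14, and the part of counting noise was not tested.

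The gene with the smallest adjusted p was Muc13, which encodes a transmembrane mucin of epithelia and blood progenitors. Its level was 7.76 and 6.81 CPM in AG120 day 14, against 53.3, 49.2 and 48.4 CPM in AG120 day 5, 62.7 and 52.8 CPM in vehicle day 14 and 53.1, 45.6 and 38.5 CPM in vehicle day 5. The AG120 day 14 libraries lay far below every other library, which did not separate from one another. Muc13 fell by 2.80 ± 0.23 log2 units (SE, adjusted p = 1.16e-05), a 6.95-fold decrease, and held its call without any single AG120 library. It lies on chromosome 16 from 33794037 to 33819934 on the plus strand (GRCm38).

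Several genes that were lower at day 5 of AG120 than in vehicle were lower again at day 14. Cd63, a tetraspanin of granules and lysosomes, had 49.3 and 56.6 CPM in AG120 day 14, against 161, 142 and 152 CPM in AG120 day 5, 281 and 328 CPM in vehicle day 14 and 306 to 364 CPM in vehicle day 5. It fell 2.86-fold between the days of AG120 (log2 change −1.52 ± 0.13, SE, adjusted p = 1.5e-05). Ptpn18, a tyrosine phosphatase, had 13.1 and 17.0 CPM in AG120 day 14, against 49.8, 44.5 and 46.5 CPM in AG120 day 5, and vehicle stood at 138 and 157 CPM at day 14 and 154 to 160 CPM at day 5. The steps of Ptpn18 did not overlap, and the later one was a 3.08-fold decrease (adjusted p = 2.59e-05). Cbfb, the partner subunit of RUNX transcription factors, had 6.27 and 8.01 CPM in AG120 day 14, against 22.6, 27.2 and 27.6 CPM in AG120 day 5 (adjusted p = 2.77e-05). Cmtm7, a membrane protein of the chemokine-like factor family, fell 3.49-fold (adjusted p = 0.000254), and Gmfg, a regulator of branched actin, fell 4.08-fold (adjusted p = 0.000254). Mef2c, a transcription factor of myeloid and lymphoid progenitors, fell 3.20-fold (adjusted p = 0.000254). These 6 genes kept their calls without any single AG120 library. The comparison of AG120 with vehicle at day 5 uses the same AG120 day 5 libraries, so the 2 steps are not independent.

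Myb followed another course. It encodes a transcription factor that keeps blood progenitors proliferating and immature. Its level was 86.3 and 73.1 CPM in AG120 day 14, against 188, 182 and 189 CPM in AG120 day 5, 139 and 120 CPM in vehicle day 14 and 134, 130 and 131 CPM in vehicle day 5. AG120 day 5 was above every vehicle library and AG120 day 14 below every one. The log2 change between the days of AG120 was −1.23 ± 0.14 (SE, adjusted p = 0.000217). It differed from that in vehicle, at −0.03 ± 0.13 (adjusted p of the difference 0.00664, but 0.064 without AG120 day 14 replicate 2 and 0.0593 without vehicle day 14 replicate 1). Cdk6, a G1 kinase of blood progenitors, was at 193 and 215 CPM in AG120 day 14, against 386, 406 and 399 CPM in AG120 day 5, 385 and 414 CPM in vehicle day 14 and 413 to 425 CPM in vehicle day 5. Only AG120 day 14 stood apart among these libraries. Cdk6 fell 1.95-fold (adjusted p = 0.00143), and both Myb and Cdk6 held their calls between the days without any single AG120 library.

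**Figure D3:**
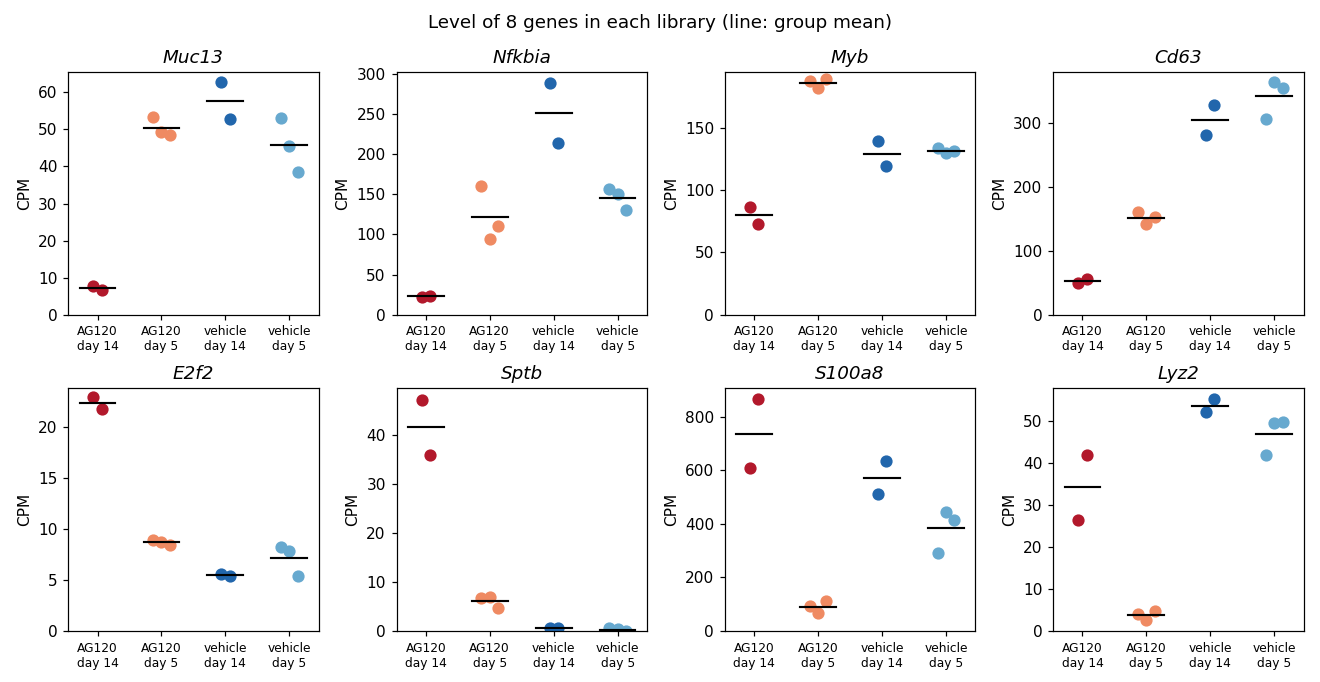
Level in CPM of 8 genes in each library of AG120 day 14, AG120 day 5, vehicle day 14 and vehicle day 5. Points are libraries and lines are group means. Muc13, Nfkbia, Myb and Cd63 were lowest in AG120 day 14, E2f2 and Sptb were highest there, and S100a8 and Lyz2 were low in AG120 day 5 alone.

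Genes of the sort and of the model served as a check of the labels. Kit, the sort marker, had 11.6 and 11.6 CPM in AG120 day 14, against 24.1, 33.1 and 23.6 CPM in AG120 day 5 and 33.5 to 37.8 CPM over vehicle. Itgam, which encodes CD11b, was highest over vehicle, at 10.6 to 18.0 CPM. It had 5.97 and 8.01 CPM in AG120 day 14, against 3.81, 3.02 and 2.56 CPM in AG120 day 5. The groups did not overlap for either gene, yet neither passed in the fit of all libraries (Kit −1.21 ± 0.46 log2 units, SE, adjusted p = 0.184, and Itgam 1.17 ± 0.67, adjusted p = 0.4). With relapse left out of the fit both did (adjusted p = 6.57e-06 for Kit and 0.00332 for Itgam). Idh1 averaged 10.3 ± 1.03 CPM in AG120 day 14 (SD, n = 2), against 20.6 ± 2.41 CPM in AG120 day 5 (SD, n = 3), again without overlap. Its log2 change of −0.99 ± 0.40 did not pass (adjusted p = 0.198, 0.000306 with relapse left out), and counts per gene do not separate a mutant from a normal copy. Idh2, the mitochondrial isocitrate dehydrogenase, had 31.0 and 40.2 CPM in AG120 day 14, against 60.2, 61.7 and 63.2 CPM in AG120 day 5. It fell 1.72-fold (adjusted p = 0.0164), a call lost without AG120 day 14 replicate 1 (0.24) or AG120 day 5 replicate 3 (0.0582). Dnmt3a, a DNA methyltransferase, was at −0.28 ± 0.14 log2 units (adjusted p = 0.308) and Nras at −0.23 ± 0.15 (adjusted p = 0.446).

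Members of the heme, iron, enzyme and membrane lists of red cell formation passed as higher at day 14, and none of those lists had a member that passed as lower. Of 16 heme synthesis genes tested, 3 rose and 13 did not pass, beside 1.75% of all genes tested that rose and 2.35% that fell, the background for each list. The count was 12 with only the AG120 libraries in the fit and 13 with relapse left out. Their median log2 change was 0.55 under AG120 and 0.06 under vehicle, beside −0.05 for all genes tested under AG120. The porphyrin carrier Abcb6 rose 2.28-fold (adjusted p = 0.011) and the mitochondrial carrier Abcb10 rose 1.55-fold (adjusted p = 0.0134). Without AG120 day 14 replicate 1 or 2 only 1 heme gene passed. Abcb6 was then at adjusted p = 0.11 or 0.0872, and Abcb10 at 0.116 or 0.0854. Without AG120 day 5 replicate 1 Abcb10 was at 0.0647, and without replicate 3 Abcb6 was at 0.0584.

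Of 14 iron genes tested 2 rose, beside 1.75% of all genes, and none fell (median 0.20, and 0.18 under vehicle). Tfrc, the transferrin receptor, had 119 and 124 CPM in AG120 day 14, against 66.9, 64.2 and 68.3 CPM in AG120 day 5, and Fth1, the heavy chain of ferritin, had 333 and 383 CPM, against 243, 197 and 212 CPM. Tfrc rose 1.83-fold (adjusted p = 0.00604, but 0.0562 or 0.0704 without AG120 day 14 replicate 1 or 2), and Fth1 rose 1.65-fold (adjusted p = 0.00204, but 0.0524 without AG120 day 14 replicate 2). Of 15 enzymes and carriers of red cells 3 rose and none fell (median 0.58, and 0.21 under vehicle). Slc25a37, the iron importer of mitochondria, rose 2.44-fold (adjusted p = 0.00306) and Prdx2, a peroxidase abundant in red cells, rose 1.73-fold (adjusted p = 0.00604). Hmox1, the heme oxygenase, rose 7.43-fold at low levels (adjusted p = 0.0457). Without AG120 day 14 replicate 2 none of these enzymes and carriers passed, with Slc25a37 at 0.0987, Prdx2 at 0.167 and Hmox1 at 0.24. Hmox1 also lost its call without each other AG120 library, at 0.113 to 0.137.

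The red cell membrane gave the largest counts among the erythroid lists. Of 23 tested genes of the membrane skeleton and blood groups 5 rose and none fell, with a median of 0.89 under AG120 and 0.27 under vehicle, and the AG120 libraries did not overlap for 20 genes that were higher at day 14 (17.9% of all genes tested were higher in this way). Summed over the 24 annotated genes, their level was 1590 and 1510 CPM in AG120 day 14, against 775, 857 and 798 CPM in AG120 day 5 and 191 to 216 CPM over vehicle. Dmtn, which bundles actin at the skeleton's junctions, had 22.7 and 16.6 CPM in AG120 day 14, against 2.13, 1.34 and 1.28 CPM in AG120 day 5 and at most 0.733 CPM in vehicle. It rose 12.1-fold (adjusted p = 0.00247). Tspan33, a tetraspanin of erythroid cells named after its values were seen, had 47.5 and 44.6 CPM in AG120 day 14, against 15.8, 14.4 and 12.8 CPM in AG120 day 5 (adjusted p = 0.0024). Sptb, beta-spectrin, had 47.2 and 35.8 CPM in AG120 day 14, against 6.70, 6.89 and 4.63 CPM in AG120 day 5.

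The fold changes were 6.79 for Sptb (adjusted p = 0.0332) and 9.18 for Epb42, protein 4.2, which ties the skeleton to band 3 (adjusted p = 0.0344). Epb42 reached the filter on low counts only through AG120 day 14. Both calls were lost when any 1 of the 5 AG120 libraries was left out. The adjusted p was then 0.0982 to 0.215 for Sptb and 0.101 to 0.18 for Epb42. Slc4a1, band 3 itself, was picked after its values were seen. It had 26.9 and 34.4 CPM in AG120 day 14, against 0.914, 1.18 and 1.12 CPM in AG120 day 5. The groups were far apart, but with a standard error of 1.43 log2 units it did not pass (adjusted p = 0.0982). With relapse left out it did (5.5e-15), as by limma-voom (0.0284). The count for the membrane list was 16 with only the AG120 libraries in the fit and 12 by limma-voom. It was 2 without AG120 day 14 replicate 1 or 2.

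Of the 23 tested members of this list 5 rose. Among these, Epb42 reached the filter only through AG120 day 14, so its call is no support. The promoter of Epb42 is shown because GATA factors are the textbook regulators of red cell genes. The 300-base window around its start (RefSeq, GRCm38.p6, chr2:121036828-121037127, minus strand) is printed 5′ to 3′, and the capitals mark TTATCT, the reverse complement of the GATA motif AGATAA, at position 25 from the 5′ end.
Epb42: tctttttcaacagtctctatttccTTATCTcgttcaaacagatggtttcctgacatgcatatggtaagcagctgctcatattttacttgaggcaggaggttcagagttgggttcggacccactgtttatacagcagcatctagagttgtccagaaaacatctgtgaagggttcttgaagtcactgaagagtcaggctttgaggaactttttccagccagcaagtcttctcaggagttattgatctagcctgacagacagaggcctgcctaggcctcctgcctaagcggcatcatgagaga
Searched on both strands, AGATAA was in the windows of 22 of the 147 genes that were higher at day 14 and have an entry (15%), 25 of the 214 that were lower (11.7%), 686 of the 8647 tested (7.93%) and 3672 of all 32851 promoters (11.2%). A match describes the letters of the window and is not a binding site.

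Globins were higher in both AG120 day 14 libraries. Their summed level was 553 and 902 CPM in AG120 day 14, against 78.3, 160 and 50.8 CPM in AG120 day 5 and 23.2 to 96.3 CPM over vehicle. Hbb-bt, an adult beta-globin, had 218 and 377 CPM in AG120 day 14, against 32.6, 58.5 and 23.0 CPM in AG120 day 5, 25.2 and 43.4 CPM in vehicle day 14 and 15.4, 44.3 and 23.1 CPM in vehicle day 5. AG120 day 14 lay above every other library, and 1 library of AG120 day 5 was above vehicle. None of the 4 tested globin genes passed (Hbb-bt log2 change 2.97 ± 0.85, SE, adjusted p = 0.0889), although DESeq2 (0.0124) and limma-voom (0.0112) called Hbb-bt. Near-identical globin copies can share reads, so values of single globin genes are uncertain. In a bulk sample, fewer cells of a type and less RNA per cell cannot be told apart, and this holds for every list here.

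Of 20 erythroid regulators tested, which are transcription factors, their cofactors and the erythropoietin receptor gene Epor, E2f2 rose and Myb fell, with a median of 0.14. The count was 9 with only the AG120 libraries in the fit and 10 with relapse left out. E2f2, a cell cycle factor of late erythroblasts, had 23.0 and 21.8 CPM in AG120 day 14, against 8.99, 8.74 and 8.46 CPM in AG120 day 5 and 5.39 to 8.26 CPM over vehicle. It rose 2.56-fold (adjusted p = 0.00148). Gata1 and Klf1, the master regulators of red cell genes, were picked after their values were seen. Gata1 was at 36.1 and 50.2 CPM in AG120 day 14, against 34.1, 31.4 and 36.2 CPM in AG120 day 5 and 8.25 to 10.1 CPM over vehicle, and its groups overlapped. Klf1 was at 61.5 and 68.7 CPM, against 38.9, 41.3 and 40.9 CPM. Neither passed, at log2 changes of 0.36 ± 0.42 (adjusted p = 0.719) and 0.69 ± 0.36 (adjusted p = 0.336), and with relapse left out both did (0.0447 and 4.04e-05).

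Members of the list of late erythroid clearance and ubiquitin genes passed in both directions. The list also holds Pim1, a survival kinase described further below. Of 18 tested, Trim10 and Ube2o rose and Xpo7 and Pim1 fell (median −0.01), and 1 to 3 of the 4 calls held when 1 AG120 library was left out. Trim10, a ubiquitin ligase of terminal erythroid cells, had 50 and 60 counts in AG120 day 14, against 14, 4 and 5 counts in the deeper libraries of AG120 day 5 (adjusted p = 0.0451). Ube2o, which ubiquitinates ribosomal proteins in reticulocytes, rose 2.52-fold (adjusted p = 0.00971). Xpo7, an exporter implicated in nuclear condensation, fell 1.89-fold (adjusted p = 0.00196). Trim10 lost its call without any 1 of the AG120 libraries (0.0699 to 0.218), Ube2o without AG120 day 14 replicate 2 (0.159) or AG120 day 5 replicate 3 (0.0541), and Xpo7 without AG120 day 14 replicate 1 (0.0516).

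The neutrophil genes that passed were higher at day 14 of AG120. S100a8 and S100a9 encode the subunits of calprotectin, a cytosolic protein of neutrophils. S100a8 had 608 and 867 CPM in AG120 day 14, against 93.1, 67.9 and 114 CPM in AG120 day 5, 510 and 634 CPM in vehicle day 14 and 292, 445 and 415 CPM in vehicle day 5. AG120 day 5 was the low group, and AG120 day 14 overlapped with vehicle day 14. S100a8 rose 8.05-fold (adjusted p = 0.00604) and S100a9 rose 7.13-fold (adjusted p = 0.011), both without a call once AG120 day 14 replicate 2 was left out (0.0524 and 0.0854). Lyz2, lysozyme of myeloid cells, had 26.6 and 42.0 CPM in AG120 day 14, against 3.96, 2.69 and 4.79 CPM in AG120 day 5, 52.2 and 55.3 CPM in vehicle day 14 and 41.9 to 49.8 CPM in vehicle day 5. It rose 9.02-fold (adjusted p = 0.00143), and Wfdc21, a small secreted protein of neutrophils, rose 8.90-fold (adjusted p = 0.0031). Both held without any single AG120 library. The change of Lyz2 differed from that in vehicle (adjusted p = 0.0269), a call lost without AG120 day 14 replicate 1 or 2 (0.064 and 0.126), without any other AG120 library (0.0504 to 0.0688) and without 4 of the 5 vehicle libraries (0.0598 to 0.121).

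In all, 5 of 24 tested neutrophil genes rose and none fell, with a median of 2.58 under AG120 and 0.29 under vehicle. The list's summed level was 1430 and 1860 CPM in AG120 day 14, against 264, 214 and 299 CPM in AG120 day 5, 1230 and 1450 CPM in vehicle day 14 and 789 to 1030 CPM in vehicle day 5. Mmp8, the neutrophil collagenase, rose 44.4-fold on 2 or 3 counts per AG120 day 5 library (adjusted p = 0.0338), a call lost without any 1 of the AG120 libraries (0.105 to 0.131). Mmp8 had 20.3 and 19.2 CPM in AG120 day 14 and 2.97 to 11.5 CPM over vehicle. AG120 day 5 was the low group, at 0.305 to 0.504 CPM. Ngp and Camp, secondary granule genes picked after their values were seen, did not pass, although limma-voom called both (0.0102 and 0.0191). Ngp had 263 and 242 CPM in AG120 day 14, against 19.7, 11.6 and 18.5 CPM in AG120 day 5 (adjusted p = 0.0884), and Camp had 76.4 and 97.7 CPM, against 5.03, 2.18 and 4.31 CPM (adjusted p = 0.162). The count was 16 with only the AG120 libraries in the fit, 10 by DESeq2 and 11 by limma-voom, and 4 or 2 without AG120 day 14 replicate 1 or 2. Itgam, the gene of the marker that the sort excluded, was highest over vehicle, at 10.6 to 18.0 CPM. It was at 5.97 and 8.01 CPM in AG120 day 14, against 2.56 to 3.81 CPM in AG120 day 5. The part of mature neutrophils or their free RNA in this result was not tested.

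Monocyte, macrophage and dendritic cell genes that passed were scarce transcripts. Of 19 monocyte and macrophage genes tested 4 rose and none fell (median 0.16), with 1 to 4 calls when 1 AG120 library was left out, while the summed level did not separate the days, at 94.6 and 141 CPM in AG120 day 14, against 113, 102 and 98.7 CPM in AG120 day 5. C1qa, a complement component of tissue macrophages, had 7.76 and 13.8 CPM in AG120 day 14, against 0.609, 0.840 and 0.479 CPM in AG120 day 5 and at most 1.11 CPM in vehicle. It rose 16.6-fold (adjusted p = 0.00181) and held without any single AG120 library. Vcam1, an adhesion molecule of the macrophages at the core of erythroid islands, had 3.88 and 18.6 CPM in AG120 day 14, against 0.457, 0.672 and 0.319 CPM in AG120 day 5 (adjusted p = 0.00834). The AG120 day 14 libraries differed widely for Vcam1, and its call was lost without replicate 2 (0.176) or AG120 day 5 replicate 3 (0.0517). Mpeg1, a pore-forming protein of macrophages, rose 10.9-fold (adjusted p = 0.0147, but 0.0655 to 0.135 without AG120 day 14 replicate 1 or 2 or AG120 day 5 replicate 1 or 3). The macrophage receptor gene Fcgr1 was at 0 in all AG120 libraries. Of 9 dendritic cell and MHC class II genes H2-Eb1 alone passed, with 26 counts over AG120 day 14 and 2 over AG120 day 5, a ratio of 29.2 (95% counting interval 7.32 to 254). Its call was lost without AG120 day 14 replicate 2 (0.0979). H2-Eb1 had 2.09 and 3.80 CPM in AG120 day 14 and 0.880 to 1.90 CPM over vehicle. AG120 day 5 was the low group, at 0 to 0.305 CPM. Cells of other types in the sort, or their free RNA, would carry such transcripts, and their part in the result was not tested.

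Lists of lymphoid and stromal cells had few members above the filter. Of the 18 B and plasma cell genes 4 were tested and 1, Cd24a, rose (log2 change 0.68 ± 0.15, SE, adjusted p = 0.0181, a call lost without 4 of the 5 AG120 libraries, 0.0655 to 0.145), and Cd24a is also a surface protein of erythroid cells. Cd79a, Pax5 and Ebf1 were at 0 in all AG120 libraries, as were Cd8a, Cd8b1 and Ncr1 of the T and NK list and Col3a1, Cdh5, Lum and Dcn of the stromal list. Of 6 tested T and NK genes Gzma rose, on 27 counts over AG120 day 14 against 2 over AG120 day 5 (ratio 30.4, 95% counting interval 7.63 to 264). Gzma reached the filter only through AG120 day 14, and its call was lost without any 1 of 4 AG120 libraries (0.0614 to 0.094). Nkg7, which granular myeloid progenitors also express, fell 2.85-fold (adjusted p = 0.00157). Of 4 tested stromal genes Vim, which progenitors also express, fell 2.19-fold (adjusted p = 0.0112, but 0.116 and 0.0945 without AG120 day 14 replicate 1 or 2).

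**Figure D4:**
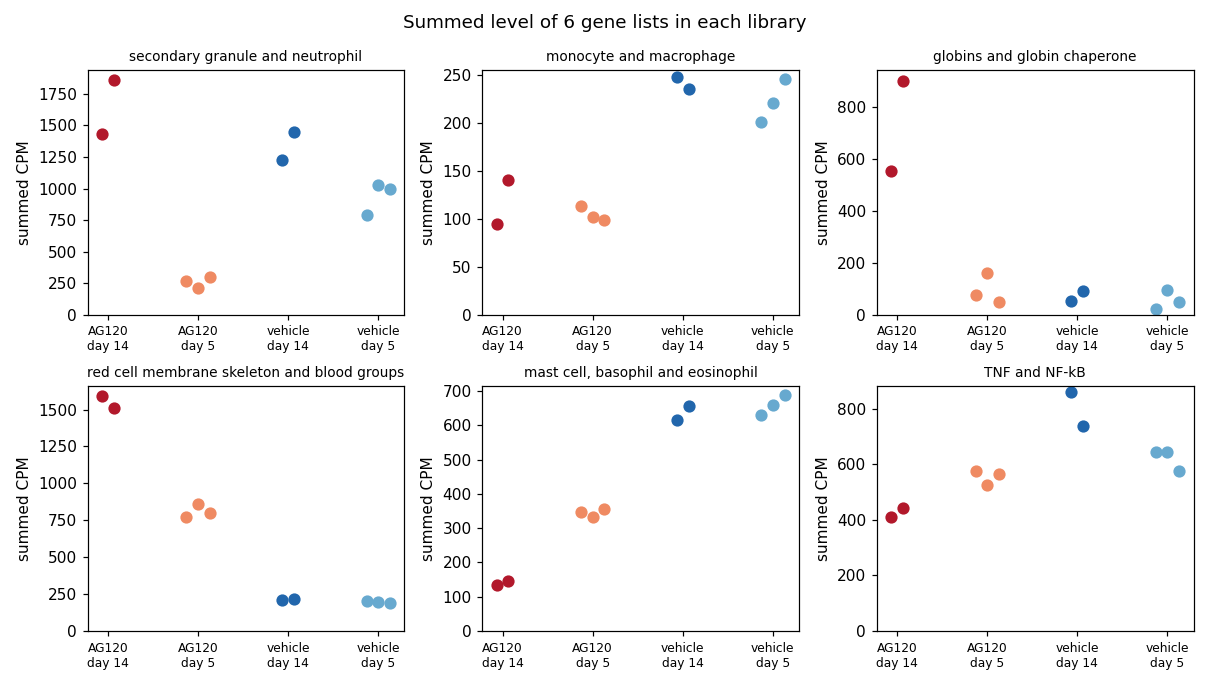
Summed level in CPM of the annotated members of 6 gene lists, with 1 point per library and the groups AG120 day 14, AG120 day 5, vehicle day 14 and vehicle day 5 from left to right. Neutrophil genes were at 1430 to 1860 CPM in AG120 day 14, against 214 to 299 CPM in AG120 day 5, red cell membrane genes at 1510 to 1590 CPM against 775 to 857 CPM, and mast cell genes at 135 to 145 CPM against 332 to 357 CPM.

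Early myeloid progenitor genes that passed did so as decreases. Of the 21 tested genes of primary granules and promyelocytes 4 fell and none rose (median −0.65, and 0.02 under vehicle), with 1 to 3 calls when 1 AG120 library was left out. Cebpa, the transcription factor that opens the granulocyte lineage, had 3.88 and 7.61 CPM in AG120 day 14, against 17.8, 15.3 and 18.0 CPM in AG120 day 5, 37.2 and 41.6 CPM in vehicle day 14 and 35.7 to 47.8 CPM in vehicle day 5. It fell 2.85-fold (adjusted p = 0.0184), and its call was lost without AG120 day 14 replicate 1 (0.217) or AG120 day 5 replicate 1 or 3 (0.0568 and 0.0575) and with limma-voom (0.0847). Plac8, a small protein of myeloid progenitors, was at 24.2 and 31.6 CPM in AG120 day 14, against 66.9, 89.4 and 77.0 CPM in AG120 day 5 (adjusted p = 0.0425, lost without any 1 of the AG120 libraries, 0.0643 to 0.303). Srgn, the proteoglycan core of granules, fell 1.82-fold (adjusted p = 0.00477, but 0.0895 without AG120 day 14 replicate 1) and was named after its values were seen. Mpo, myeloperoxidase, was picked after its values were seen and stood at 134 and 127 CPM in AG120 day 14, against 239, 305 and 219 CPM in AG120 day 5 (adjusted p = 0.459, and 1.67e-05 with only the AG120 libraries in the fit).

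Of 24 stem and progenitor genes tested 2 fell and Mllt3 rose, beside 2.35% and 1.75% of all genes, with a median of −0.79 under AG120 and 0.05 under vehicle. Cd34, the sialomucin of stem cells, was at 4.48 and 5.80 CPM in AG120 day 14, against 11.3, 11.4 and 7.67 CPM in AG120 day 5 and 126 to 147 CPM over vehicle. It fell 1.93-fold (adjusted p = 0.0319), a step far smaller than its distance from vehicle. Bcl2, the survival factor of stem cells and lymphocytes, had 4.18 and 3.00 CPM in AG120 day 14, against 9.90, 9.91 and 9.42 CPM in AG120 day 5 (adjusted p = 0.00572). Mllt3, a factor that maintains stem cells and also serves the erythroid lineage, had 2.98 and 3.60 CPM in AG120 day 14, against 0.305, 0.840 and 0.160 CPM in AG120 day 5 (adjusted p = 0.0144), and it reached the filter only through AG120 day 14. Cd34 lost its call without AG120 day 14 replicate 1 or 2 (0.262 and 0.104) or AG120 day 5 replicate 1 or 2 (0.1 and 0.102), Bcl2 without AG120 day 14 replicate 2 (0.12), and Mllt3 without 4 of the 5 AG120 libraries (0.0655 to 0.143). None of this list passed without AG120 day 14 replicate 2, and 1 did without replicate 1. Itgb3, the beta subunit of the fibrinogen receptor, is listed with megakaryocyte genes. It rose to 24.5 and 17.4 CPM in AG120 day 14, against 5.03, 4.70 and 2.56 CPM in AG120 day 5 and 17.5 to 25.2 CPM over vehicle (adjusted p = 0.000438), so that the low group was AG120 day 5. Of the 21 tested genes of that list 2 rose and 1 fell.

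Of 16 mast cell, basophil and eosinophil genes tested 4 fell and none rose, and all but 1 had a negative log2 change (median −1.08, and 0.16 under vehicle). Their summed level was 135 and 145 CPM in AG120 day 14, against 346, 332 and 357 CPM in AG120 day 5 and 615 to 687 CPM over vehicle. Cd63 alone held 49.3 and 56.6 CPM of this sum in AG120 day 14, against 161, 142 and 152 CPM in AG120 day 5, and Cd63 and Srgn, which other granular cells also express, are 2 of the 4 calls. Ms4a2, the beta chain of the IgE receptor, had 0.895 and 0.200 CPM in AG120 day 14, against 3.35, 4.37 and 6.07 CPM in AG120 day 5, 2.93 and 1.52 CPM in vehicle day 14 and 2.97 to 3.09 CPM in vehicle day 5. It fell 9.10-fold on 3 and 1 counts at day 14 (adjusted p = 0.00755). Cpa3, carboxypeptidase A of mast cells, had 1.49 and 4.40 CPM in AG120 day 14, against 22.4, 18.5 and 19.3 CPM in AG120 day 5 (adjusted p = 0.0331). The mast cell proteases Cma1, Mcpt4 and Tpsab1 and the receptor gene Fcer1a were at 0 in all AG120 libraries. Cpa3 lost its call without any 1 of the AG120 libraries (0.0612 to 0.238) and Ms4a2 without AG120 day 14 replicate 2 (0.143).

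The NF-kB pathway had a negative median change under AG120 and a positive one under vehicle. NF-kB dimers are held in the cytoplasm by inhibitors such as IkB-alpha, the product of Nfkbia, which NF-kB itself induces. Nfkbia had 22.1 and 23.4 CPM in AG120 day 14, against 160, 94.4 and 111 CPM in AG120 day 5, 289 and 214 CPM in vehicle day 14 and 156, 151 and 130 CPM in vehicle day 5. AG120 day 14 was the lowest group and vehicle day 14 the highest. Nfkbia fell 5.34-fold (log2 change −2.42 ± 0.47, SE, adjusted p = 0.0149), while in vehicle it was at 0.79 ± 0.39, and the changes differed (adjusted p = 0.0343). Without AG120 day 14 replicate 1 or 2 the adjusted p of its fall was 0.142 or 0.121. The difference from vehicle was lost without any 1 of the 10 libraries (0.0507 to 0.207). Nfkb1, the p105 precursor of p50, had 7.76 and 6.81 CPM in AG120 day 14, against 15.2, 21.2 and 15.7 CPM in AG120 day 5 (adjusted p = 0.00966, but 0.0742 or 0.126 without AG120 day 14 replicate 1 or 2). Of 29 pathway genes tested 3 fell and none rose, with a median of −0.74 under AG120 and 0.42 under vehicle, and none passed without AG120 day 14 replicate 1 or 2. Summed over the list, the level was 411 and 442 CPM in AG120 day 14, against 576, 525 and 565 CPM in AG120 day 5, 860 and 737 CPM in vehicle day 14 and 575 to 646 CPM in vehicle day 5.

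The promoter of Nfkbia is shown because the gene is the pathway's own target. The 300-base window around its start (RefSeq, GRCm38.p6, chr12:55492598-55492897, minus strand) is printed 5′ to 3′, and the capitals mark GGAAATTCCC, a match to the reverse complement of the kappaB motif (GGG, any 2 bases, then TTTCC), at position 222 from the 5′ end.
Nfkbia: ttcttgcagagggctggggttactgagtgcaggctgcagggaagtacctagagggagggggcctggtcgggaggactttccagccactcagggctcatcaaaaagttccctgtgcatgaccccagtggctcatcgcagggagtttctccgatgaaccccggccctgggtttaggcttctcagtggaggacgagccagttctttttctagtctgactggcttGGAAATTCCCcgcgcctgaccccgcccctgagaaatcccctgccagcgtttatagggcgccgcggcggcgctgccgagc
On both strands, this motif was in the windows of 3 of the 147 genes that were higher at day 14 (2.04%), 9 of the 214 that were lower (4.21%), 180 of the 8647 tested (2.08%) and 535 of all 32851 promoters (1.63%). These shares are a description of letters, and they say nothing of binding.

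Immediate early genes, which a stimulus or the handling of cells induces within minutes, were scattered among the day 5 libraries. Their summed level was 267 and 287 CPM in AG120 day 14, against 926, 520 and 670 CPM in AG120 day 5, 622 and 575 CPM in vehicle day 14 and 1040, 368 and 371 CPM in vehicle day 5. Replicate 1 was the highest of AG120 day 5 and of vehicle day 5, and AG120 day 14 lay below every other library. Jun and Egr1, picked after their values were seen, showed the same scatter. Jun had 9.25 and 18.8 CPM in AG120 day 14, against 225, 89.5 and 135 CPM in AG120 day 5 (adjusted p = 0.19, and 0.0294 by DESeq2), and Egr1 had 3.28 and 4.20 CPM, against 92.0, 37.0 and 48.9 CPM (adjusted p = 0.393). Of 19 genes tested Myc alone passed (median −1.28, and 0.10 under vehicle). Nfkbia was likewise highest in replicate 1 within AG120 day 5, and the part of handling in these values was not tested.

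Myc, Pim1 and Dusp5 fell with time under AG120 and had positive log2 changes under vehicle. Pim1, a survival kinase, had 16.1 and 20.4 CPM in AG120 day 14, against 36.4, 32.3 and 37.2 CPM in AG120 day 5, 154 and 172 CPM in vehicle day 14 and 91.6, 82.4 and 89.0 CPM in vehicle day 5. It fell 1.92-fold under AG120 (adjusted p = 0.0259), its log2 change under vehicle was 0.90 ± 0.19 (SE), and the changes differed by −1.83 ± 0.30 (adjusted p = 0.00774, but 0.0802 without AG120 day 14 replicate 1 and 0.0502 without vehicle day 14 replicate 2). Myc, the growth regulator, had 15.5 and 11.4 CPM in AG120 day 14, against 21.0, 30.6 and 24.8 CPM in AG120 day 5, 17.1 and 16.3 CPM in vehicle day 14 and 7.07 to 12.2 CPM in vehicle day 5. Its fall of 1.91-fold was at the threshold (adjusted p = 0.0497) and was lost without any 1 of the AG120 libraries (0.0568 to 0.306). Dusp5, a phosphatase that feeds back on ERK, had 1 and 4 counts in AG120 day 14, against 39, 15 and 19 counts in AG120 day 5 (adjusted p = 0.0403). Pim1 lost its call without AG120 day 14 replicate 1 or 2 (0.264 and 0.0916) or AG120 day 5 replicate 1 or 3 (0.0733 and 0.0807), and Dusp5 without the same 4 libraries (0.0592 to 0.274).

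Fitted with their own 5 libraries alone, vehicle samples gave 236 calls with time among the 11348 genes tested in that fit. Of these calls 16 were also among the 492 of AG120, which is 3.25% of the AG120 calls. They are 6.78% of the vehicle calls, beside 4.1% of all genes tested that were called under AG120. The overlap was not tested against that share. The direction was the same for 7 genes and opposite for 9. Among the 7 were S100a9, the linker histones Hist1h1c and Hist1h1e and the immunoproteasome subunit Psmb8. Hist1h1c had 95.5 and 79.1 CPM in AG120 day 14, against 49.5, 44.2 and 41.5 CPM in AG120 day 5, 60.1 and 52.5 CPM in vehicle day 14 and 30.9, 40.3 and 37.1 CPM in vehicle day 5, so that both pairs of groups separated in the same direction. Among the 9 were Nfkbia, Pim1, Myc and Dusp5, lower with time under AG120, and Chd3, a subunit of the NuRD complex, and Znfx1, a helicase, which were higher. Chd3 had 100 and 70.1 CPM in AG120 day 14, against 51.8, 34.3 and 36.9 CPM in AG120 day 5, and 97.4 and 92.9 CPM in vehicle day 14, against 139, 146 and 134 CPM in vehicle day 5. Without AG120 day 14 replicate 1 Chd3 was at adjusted p = 0.0712 and Znfx1 at 0.116. Hist1h1e lost its call under AG120 without any 1 of the AG120 libraries (0.0541 to 0.174). These 16 genes were found after the values were seen.

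Apoptosis genes passed in both directions. Of 29 p53 target and apoptosis genes tested 1 rose and 4 fell (median −0.04). Bcl2l1, which encodes BCL-XL, the survival factor of erythroblasts, rose 2.13-fold between the days of AG120 (adjusted p = 0.0237). Its level was 8.66 and 9.21 CPM in AG120 day 14, against 4.27, 3.19 and 5.11 CPM in AG120 day 5. Every vehicle library was higher, at 14.6 to 16.8 CPM. Bcl2 fell 2.77-fold, as given with the stem cell genes, and Pmaip1, which encodes the death factor NOXA, fell 8.38-fold on 3 and 2 counts in AG120 day 14 (adjusted p = 0.00365). Perp, a p53 target, fell 3.81-fold (adjusted p = 0.0451) and Casp8, an initiator caspase named after its values were seen, fell 2.03-fold (adjusted p = 0.0378, lost without 4 of the 5 AG120 libraries, 0.0823 to 0.303). Pmaip1 lost its call without AG120 day 14 replicate 2 (0.0996) and Bcl2l1 without AG120 day 14 replicate 1 or 2 (0.112 and 0.165) or AG120 day 5 replicate 1 or 2 (0.0664 and 0.0941). Perp lost it without any 1 of the AG120 libraries (0.0564 to 0.274), and none of the list passed without AG120 day 14 replicate 2.

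Cell cycle, growth and ribosome genes gave few calls in the fit of all libraries. Of 50 genes of G1/S and DNA replication 2 rose and 1 fell (median 0.17). Ccne1, cyclin E1, had 39.7 and 47.6 CPM in AG120 day 14, against 16.5, 17.8 and 20.1 CPM in AG120 day 5 (adjusted p = 0.00766, but 0.119 without AG120 day 14 replicate 2), E2f2 rose as given above, and Cdk6 fell. Of 43 genes of G2/M and mitosis 1 rose (median 0.20), namely the cyclin gene Ccnf, which limma-voom did not call (0.0703) and which was lost without AG120 day 14 replicate 1 (0.488) or AG120 day 5 replicate 1 or 3 (0.136 and 0.123). With only the AG120 libraries in the fit 12 genes of G1/S and 6 of G2/M passed, and with relapse left out 15 and 11. In the fit of all libraries, of 17 CDK inhibitors and quiescence genes none passed, and of 42 ribosomal protein genes none passed (median −0.16). Of 50 genes of ribosome biogenesis and other MYC targets 1 passed, Myc itself (median 0.01). Of 23 histone genes 4 rose and 1 fell (median −0.04), with 1 to 3 calls when 1 AG120 library was left out. Histone transcripts have near-identical copies, and most lack a poly(A) tail, so their 3′ counts are uncertain.

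Lists tied to the metabolite that IDH1 handles had 0% to 6.9% of their tested members called, near the 4.1% of all genes tested. Of 29 genes of the TCA cycle and 2-oxoglutarate metabolism 2 fell and none rose (median −0.07), namely Idh2 and Glud1, glutamate dehydrogenase. Glud1 had 46.6 and 53.8 CPM in AG120 day 14, against 103, 89.5 and 92.0 CPM in AG120 day 5, 139 and 158 CPM in vehicle day 14 and 147 to 168 CPM in vehicle day 5 (adjusted p = 0.00202, but 0.058 without AG120 day 14 replicate 1). Of 29 tested dioxygenases that depend on 2-oxoglutarate 1 rose (median 0.06). Kdm7a, a histone demethylase of that family, had 24.5 and 20.2 CPM in AG120 day 14, against 7.47, 5.54 and 6.55 CPM in AG120 day 5 and 7.05 to 8.64 CPM over vehicle. It rose 3.39-fold (adjusted p = 0.00142), and that call held without any single AG120 library. Its change differed from that in vehicle (adjusted p = 0.0343), which was lost without any 1 of the 10 libraries (0.0651 to 0.182). Of 30 genes of DNA methylation and polycomb complexes none passed (median −0.06). With only the AG120 libraries in the fit 3 genes of that list passed, as did 5 of the TCA cycle list and 2 dioxygenases. In that fit 1448 of all 10277 genes tested passed. Of 29 glycolysis and hypoxia genes Hk2, a hexokinase, fell 2.26-fold (adjusted p = 0.0206) and Pfkfb3, which makes the activator of phosphofructokinase, fell 2.11-fold (adjusted p = 0.0237). Neither of those held without AG120 day 14 replicate 1 (0.238 and 0.228) or replicate 2 (0.07 and 0.0923).

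Of 36 cholesterol and fatty acid genes tested 2 passed as higher and 1 as lower (median 0.19). Scd1, which desaturates stearate, had 20 and 18 counts in the AG120 day 14 libraries and 0 in every library of AG120 day 5 and vehicle. It is 1 of the 2 higher genes but reached the filter only through AG120 day 14, so its call is no support, and DESeq2 did not make it (adjusted p = 0.528). Sqle, the epoxidase of sterol synthesis, rose 1.91-fold (adjusted p = 0.00685, but 0.0935 without AG120 day 14 replicate 1). Elovl5, a fatty acid elongase, fell 2.46-fold (adjusted p = 0.0377, lost without any 1 of the AG120 libraries, 0.0812 to 0.311). Of 24 glutathione and NADPH genes 3 rose and none fell, with 1 call when any 1 AG120 library was left out. Gstm5, a glutathione transferase, had 22.4 and 20.8 CPM in AG120 day 14, against 5.49, 6.55 and 9.42 CPM in AG120 day 5 and at most 0.553 CPM in vehicle (adjusted p = 0.0283, lost without any 1 of the AG120 libraries, 0.0526 to 0.209). Mt1 and Mt2, metallothioneins, did not pass (adjusted p = 0.544 and 0.529). Mt2 stood at 270 and 347 CPM in AG120 day 14, against 599, 618 and 478 CPM in AG120 day 5, 15.5 and 20.6 CPM in vehicle day 14 and 5.70 to 9.13 CPM in vehicle day 5. With relapse left out Mt2 passed (0.000243).

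Most calls among adhesion and interferon genes were decreases. Of 28 integrin, adhesion and chemotaxis genes tested 6 fell and 1 rose (median −0.32, and 0.01 under vehicle), with 2 to 6 calls when 1 AG120 library was left out. Itgal, the alpha chain of LFA-1, had 6.87 and 6.81 CPM in AG120 day 14, against 13.4, 15.6 and 15.2 CPM in AG120 day 5 and 65.1 to 81.0 CPM over vehicle (adjusted p = 0.00971, but 0.092 or 0.108 without AG120 day 14 replicate 1 or 2). Selplg, the ligand of selectins, fell 2.28-fold (adjusted p = 0.00543, but 0.109 without AG120 day 14 replicate 1). Of 35 interferon response genes 3 fell and none rose (median −0.42, and 0.16 under vehicle), with 1 to 3 calls when 1 AG120 library was left out. Psmb8 had 9.85 and 12.8 CPM in AG120 day 14, against 34.0, 35.8 and 41.0 CPM in AG120 day 5, 55.4 and 61.8 CPM in vehicle day 14 and 67.8 to 83.6 CPM in vehicle day 5 (adjusted p = 0.000254). It held without any single AG120 library, whereas Psmb9 and Parp14, at adjusted p = 0.047 and 0.017, did not.

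Among the genes with the largest changes at a mean log2 CPM of at least 3 were several outside these lists. Mgll, monoacylglycerol lipase, had 32.5 and 29.8 CPM in AG120 day 14, against 2.13, 4.03 and 3.19 CPM in AG120 day 5 and at most 1.11 CPM in vehicle. It rose 9.98-fold (adjusted p = 0.000396). Camsap2, which caps the minus ends of microtubules, rose 4.55-fold (adjusted p = 0.00232) and Arhgef12, an activator of RhoA, rose 4.31-fold (adjusted p = 0.00623). Both lost their calls without AG120 day 14 replicate 1 (0.0516 and 0.0918). Aldh1a1, a retinaldehyde dehydrogenase, was below that level, at a mean log2 CPM of 1.96, and was named for its small adjusted p. It had 14.9 and 14.8 CPM in AG120 day 14, against 1.07, 1.51 and 1.28 CPM in AG120 day 5 and at most 0.553 CPM in vehicle (adjusted p = 0.000166). Like Mgll it held without any single AG120 library, but it reached the filter only through AG120 day 14. Fam210b, a mitochondrial protein of erythroid iron handling, rose 3.85-fold (adjusted p = 0.00152) and Ppp2r5b, a regulatory subunit of protein phosphatase 2A, rose 3.62-fold (adjusted p = 0.000933), and both held likewise. On the other side, Cst7, an inhibitor of granule cathepsins, had 3.88 and 3.40 CPM in AG120 day 14, against 25.9, 28.7 and 19.6 CPM in AG120 day 5, 18.3 and 13.4 CPM in vehicle day 14 and 12.1 to 15.5 CPM in vehicle day 5 (adjusted p = 0.00202, but 0.0528 without AG120 day 14 replicate 2). AG120 day 5 was the highest group for Cst7 and AG120 day 14 the lowest. Ptprs, a receptor phosphatase, fell 3.54-fold (adjusted p = 0.00048) and Man2a2, a Golgi mannosidase, fell 3.57-fold (adjusted p = 0.000533), both without loss when any single AG120 library was left out.

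Of the 492 genes, 22 had 3 counts or fewer summed over 1 of the AG120 groups, 11 of them at day 14 and 11 at day 5. Their fitted fold changes depend on the prior count. Smad1, a signal carrier of bone morphogenetic proteins, had 1 count over AG120 day 14 and 29 over AG120 day 5, a ratio of 0.0776 (95% counting interval 0.0019 to 0.468). Its call was not made by DESeq2 (0.126) or limma-voom (0.122) and was lost without AG120 day 14 replicate 1 or 2 (0.142 and 0.0823) or AG120 day 5 replicate 1 (0.0598). Homez, a homeobox gene named after its values were seen, had 0 counts over AG120 day 14 and 27 over AG120 day 5 (adjusted p = 0.0112, but 0.0833 or 0.123 without AG120 day 14 replicate 1 or 2). Such genes at AG120 day 14 rest on the shallower libraries of the comparison.

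**Figure D5:**
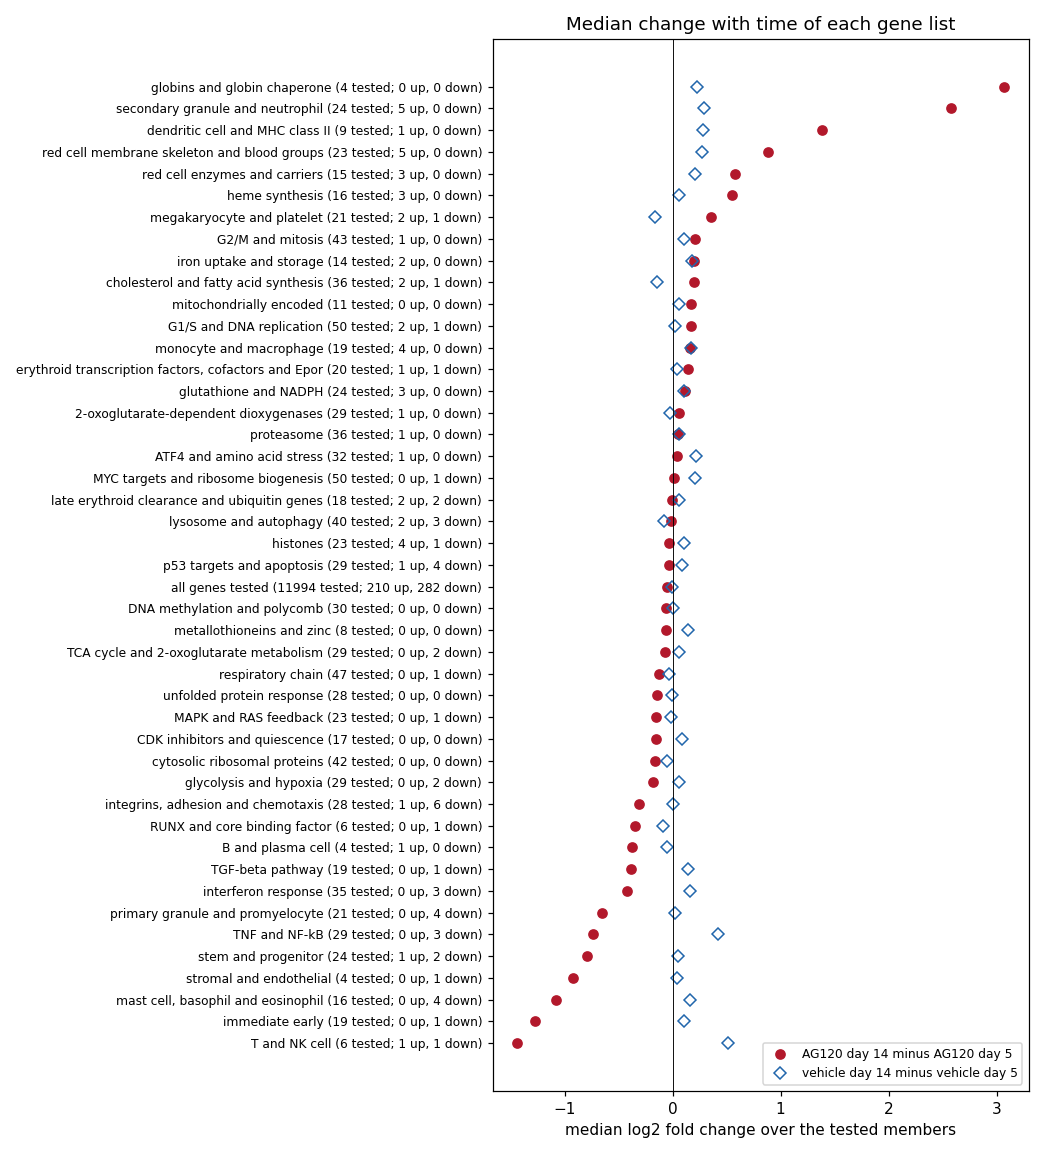
Median log2 change with time over the tested members of each gene list, for AG120 day 14 minus AG120 day 5 (filled circles) and vehicle day 14 minus vehicle day 5 (open diamonds). The row labels give the members tested and how many rose or fell under AG120. The lists of globins (3.07) and neutrophil genes (2.58) had the highest medians under AG120, and the vehicle medians lie between −0.17 and 0.51.

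The remaining lists had small counts. Of 23 genes of MAPK and RAS feedback 1 fell, of 19 TGF-beta pathway genes 1 fell, and of 6 RUNX and core binding factor genes 1 fell, namely Dusp5, Smad1 and Cbfb. Of 40 lysosome and autophagy genes 2 rose and 3 fell, among them Cd63. Ctsb, a cathepsin, rose 2.71-fold (adjusted p = 0.00581, but 0.113 without AG120 day 14 replicate 2) and Laptm5, a lysosomal protein of blood cells, fell 2.02-fold (adjusted p = 0.00163, but 0.0505 without AG120 day 14 replicate 1). Of 32 ATF4 and amino acid stress genes 1 rose, of 36 proteasome genes 1 rose, and of 47 respiratory chain genes 1 fell. These were Atf5 and Sdhc, each lost without any 1 of the AG120 libraries (0.0508 to 0.315 and 0.0643 to 0.363), and the proteasome gene Psmd4, lost without AG120 day 14 replicate 1 (0.271) or AG120 day 5 replicate 1 or 2 (0.0568 and 0.0779). In the fit of all libraries no gene passed among 28 of the unfolded protein response, 11 encoded by the mitochondrial genome and 8 metallothionein and zinc genes, whereas 4, 2 and 3 did with only the AG120 libraries.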

How the data were processed

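The deposited table holds unnormalized counts of 52636 Ensembl identifiers in 14 libraries of 5 groups. Per the submitters' processing notes, reads were handled with bcl2fastq 2.17.1.14, cutadapt 1.14, HISAT2 2.1.0 on mm10 and featureCounts of Subread 1.6.3, and R 3.6.2, limma 3.42.2 and edgeR 3.28.1 are listed. Use of strand, of molecular identifiers and of reads that match several places is not given in the sources used here, so overlapping genes and near-identical copies are uncertain. Columns were matched to libraries by name. A gene annotation of GRCm38, the assembly of mm10, named 52489 identifiers, and 22670 had no count. Promoter sequences are from RefSeq (GRCm38.p6).

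With R 4.3.3 and edgeR 4.0.16, genes were filtered with filterByExpr (minimum count 10, leaving 11994), scaled by TMM with ribosomal RNA kept, and fitted with the robust quasi-likelihood method, 1 coefficient per group over all 14 libraries (9 residual degrees of freedom), with Benjamini-Hochberg adjustment over all genes tested. Fold changes are from this fit and follow its prior count where counts are low. Contrasts were AG120 day 14 minus AG120 day 5, the same in vehicle, and the difference of these changes. No gene list was tested as a set. The 44 lists hold textbook members, some of them in several lists, and a list is described by its calls and median. Intervals and limits from counts cover counting error only. The procedure was tested on simulated counts.

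Named genes were 6 genes of the model and sort, the largest changes at a mean log2 CPM of at least 3 with groups that did not overlap, the smallest adjusted p values with time and of the difference, the largest changes in vehicle by the same rule, and up to 3 members per list and direction that passed, or the 2 most expressed where none did. No gene passed in vehicle, so the part of the rule on vehicle changes named none. Genes outside all parts of the rule are said to be picked after their values were seen. The comparison, lists and rule were chosen with earlier results of these data known. Alternatives were DESeq2 1.42.0, limma-voom 3.58.1, other scaling, filters and depth, other sets of libraries, and each library left out. Same-numbered libraries were not taken as pairs. Some genes that are members of the lists, and enter their counts, are not reported here.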

Additional observations from a re-analysis of the deposited data

Results flagged for a closer look

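The change with time differed between AG120 and vehicle, by the test of the difference itself, for 112 genes. The values that follow are the log2 change from day 5 to day 14 under AG120 minus that under vehicle, for named genes among them. At an adjusted p of 0.05, 5 of the differences held under every alternative run, namely those of Muc13 at −3.13, Cd63 at −1.35, Ptpn18 at −1.53, Cbfb at −1.64 and St3gal2 at 1.79. The others were lost under at least 1 alternative.

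Differences were also negative for the surface and signalling genes Cmtm7 (−1.75), Gmfg (−1.95), Ptprs (−1.67), Itgal (−1.31), Pim1 (−1.83), Dusp5 (−3.71) and Smad1 (−4.02, but −6.92 without AG120 day 14 replicate 2, on 1 count over that group), and for Nfkbia (−3.20), the inhibitor of NF-kB. Among transcription factors they were negative for Myb (−1.20), Myc (−1.74), Mef2c (−1.46) and Ikzf2 (−1.80), and among cell cycle and death genes for Cdk6 (−0.896) and Pmaip1 (−3.76). Granule and trafficking genes with a negative difference were Nkg7 (−1.52), Cst7 (−3.01), Rab44 (−2.09), Man2a2 (−1.75) and Xpo7 (−1.11), and the immunoproteasome gene Psmb8 stood at −1.30.

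Positive differences were those of the erythroid genes Fam210b (2.42) and E2f2 (1.74), the demethylase gene Kdm7a (1.78), Itgb3 (2.32) and Lyz2 (2.98). Itgb3, Lyz2 and St3gal2 were lower in every AG120 day 5 library than in any library of AG120 day 14 or vehicle.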

How the results depend on the processing

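Counts of genes are given for AG120 with time, vehicle with time and the difference of both changes, which were 492, 0 and 112. They were 852, 33 and 374 with no filter on low counts, 1448, 236 and 869 when a fit held no groups but its own, and 1685 and 117 for AG120 and vehicle with relapse left out, an alternative added after seeing the data. An adjusted p of 0.01 left 201 under AG120 and 19 in the difference. The difference alone had 71 genes with libraries thinned to equal depth, 31 with limma-voom and 187 with DESeq2. Limma-voom called 367 genes under AG120, of which 63.8% were higher, against 42.7% in the edgeR fit. Leaving out 1 library gave 137 to 317 genes under AG120, 0 each time in vehicle, and 13 to 61 in the difference. DESeq2 size factors (518, 0 and 97) and removal of ribosomal RNA gene models (511, 0 and 103) stayed within 1.5 times. The cause of these shifts was not tested, beyond the fewer samples or genes that some alternatives hold.

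With the replicate block the counts were 425, 0 and 108. Deviations of same-numbered libraries correlated at −0.0523 and −0.0577 under AG120 and at 0.0154 and −0.0354 in vehicle, so the numbers gave no pairing.

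Of 118 named genes 99 passed, and all 99 had the same sign under every alternative run. Every alternative reuses these libraries, and the AG120 groups did not overlap in CPM for any gene that passed. The kept signs are therefore no support for the calls. Calls held for 28 under all alternatives other than the block and the adjusted p of 0.01. With 2 libraries at day 14, of which the shallower had 1259982 counts outside ribosomal RNA, low genes are the least certain.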
